A study of Mus musculus with 4 samples.

Results

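Mature enterocytes are described here as the enterocytes that carried more transcripts of 5 absorptive marker genes than the median enterocyte of their own library. The markers were Alpi (intestinal alkaline phosphatase of the brush border), Apoa1 and Apoa4 (apolipoproteins secreted with dietary fat), Rbp2 (the retinol carrier of enterocytes) and Ada (adenosine deaminase). For each cell of the deposited type Enterocyte, unique molecular identifiers (UMIs, each standing for 1 captured transcript) of these genes were taken as a share of all its UMIs, and cells strictly above the library's median share were kept. The members were thus chosen by the measured counts of these 5 genes in the same cells. This gave 4235 mature cells of 8474 enterocytes, out of 15053 cells of 7 deposited types. The other 4239 enterocytes are called immature, which is a relative term.

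The libraries came from the small intestine of mice, 2 on a control diet and 2 on a ketogenic diet, prepared with droplet 3' chemistry on whole dissociated intestine. The question behind the design was how a ketogenic diet, which is rich in fat and very low in carbohydrate, acts on the intestine. Diet was the only factor in the labels. Strain, genotype, age, the composition and length of the diets, the intestinal segment and the number of animals behind a library do not appear in the sources used here. The p-values therefore cover only the differences among these libraries, part of which may be technical.

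Enterocytes arise from stem cells in the crypts, mature as they move up the villus and are shed at its tip. On the way they switch on disaccharidases and peptidases of the brush border, transporters for sugars and amino acids, and the machinery that packs absorbed fat into chylomicrons. Enterocytes also burn fatty acids, and the nuclear receptor PPARα, which binds fatty acids, is known to switch on genes of fat binding, activation and oxidation in them.

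Pairs of values are given in the order library 1, library 2. The mature cells numbered 1078 and 1385 on the control diet and 874 and 898 on the ketogenic diet. Their UMI sums were 9504490 and 9971566 on the control diet and 7047921 and 8684358 on the ketogenic diet. The median mature cell held 8850 and 7644 UMIs on the control diet and 6532.5 and 9884 on the ketogenic diet. Mitochondrially encoded UMIs made up 13.3% and 10.6% of the median control cell and 20.1% and 9.49% of the median ketogenic cell. They made up at least 50% in 6.03% and 5.56% of control cells and in 18.3% and 8.57% of ketogenic cells. Ketogenic library 1 thus stood highest by both measures. From 10 to 26 cell barcodes were shared by any pair of libraries over all cells, and from 1 to 4 over the mature cells.

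The dividing share lay at 0.0320% and 0.0177% of a cell's UMIs on the control diet and at 0.0278% and 0.00968% on the ketogenic diet. Just inside it lay cells at 0.0321%, 0.0178%, 0.0278% and 0.00971%, and just outside it cells at 0.0319%, 0.0177%, 0.0278% and 0.00968%, in the same order. The mature cells of the libraries were therefore not equally rich in the markers. The median mature cell held 10 and 5 marker UMIs on the control diet and 10 and 3 on the ketogenic diet. A single marker UMI was enough for 5.84% and 16.03% of the mature cells on the control diet and for 10.5% and 24.7% on the ketogenic diet. At least 20 marker UMIs were present in 30.7% and 21.4% of the control cells and in 36.0% and 17.6% of the ketogenic cells. Ketogenic library 2 had the lowest marker content by each of these measures. For scale, 25.3%, 28.7%, 35.3% and 23.1% of tuft cells, a secretory type that should lack these genes, also held a marker UMI (control libraries first), against 70.6%, 61.8%, 75.1% and 58.7% of all enterocytes. Median depth was 7492, 5557, 8138 and 7604.5 UMIs in tuft cells and 8413.5, 7342, 9323 and 9629 in enterocytes.

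**Figure D1:**
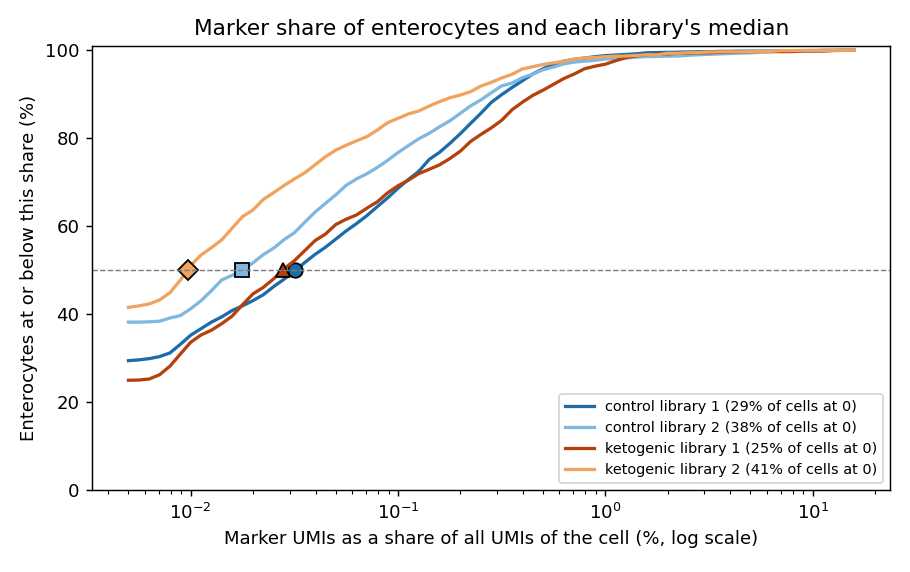
Cumulative percentage of enterocytes (y axis) at or below a given marker share in percent of the cell's UMIs (x axis, log scale), 1 line per library, with a symbol at each library's median. The medians run from 0.00968% in ketogenic library 2 to 0.0320% in control library 1.

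Rbp2 supplied most of the marker UMIs, from 52.5% in control library 2 to 63.9% in ketogenic library 1. In mature cells it stood, in counts per 1000000 UMIs (CPM), at 1770 and 1582 on the control diet and 2647 and 1283 on the ketogenic diet. Apoa1 stood at 702 and 810 CPM on the control diet and at 858 and 387 CPM on the ketogenic diet. For Apoa4 the levels were 207 and 435 CPM on the control diet and 415 and 230 CPM on the ketogenic diet. Alpi was at 168 and 174 CPM on the control diet and at 213 and 117 CPM on the ketogenic diet. For Rbp2, Apoa1 and Alpi both control values lay between the ketogenic ones, and for Apoa4 both ketogenic values lay between the control ones. Ada followed the division far less than the other markers and not in every library. It was at 8.84, 11.8, 7.24 and 10.4 CPM in mature cells and at 6.70, 5.06, 7.85 and 2.71 CPM in immature cells of control libraries 1 and 2 and ketogenic libraries 1 and 2, and in ketogenic library 1 it was higher in the immature cells. The 10% of mature cells with the most marker UMIs held a large part of them. It was 53.0% and 66.3% on the control diet and 58.5% and 71.1% on the ketogenic diet. Because these 5 genes chose the cells, the genes were not tested.

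Genes that the rule did not use followed the same order, which is a description of the chosen cells and carries no test. Of 11305 genes with enough counts, 32.9% were higher and 34.5% lower in mature than in immature cells in all 4 libraries, and the log2 ratio was above 1 in all 4 for 3.1% and below -1 in all 4 for 1.47%. The median over all genes of the mean log2 ratio of mature to immature cells was -0.02. Genes of digestion and absorption went far beyond this. In all 4 libraries, every measured gene of the following lists was higher in mature cells. They were mid villus nutrient transporters (12 of 12), carbohydrate digestion (11 of 11) and chylomicron assembly (15 of 15). Median log2 ratios for these lists were 1.67, 1.63 and 1.67. For peptidases and amino acid transporters it was 13 of 14 genes, with a median of 2.23, and for cytochrome P450 and conjugation genes 17 of 19, with a median of 2.01. Brush border structure genes were higher in 10 of 12 cases with a median of 0.98, and all 23 genes of cholesterol synthesis were higher with a median of 0.71. Genes of MHC class I presentation were higher in 12 of 12 cases with a median of 0.62.

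Single genes had larger ratios. Gsta1, a glutathione transferase, stood at 297 and 303 CPM in mature cells on the control diet and at 216 and 123 CPM on the ketogenic diet. In the immature cells it was at 17.3 and 5.69 CPM on the control diet and at 5.31 and 5.66 CPM on the ketogenic diet, so that the log2 ratio was 4.71 ± 0.71 (SD, n = 4 libraries). Next to it came the fatty acid carrier Fabp1 at 4.05 ± 0.73, the lectin Reg1 at 4.00 ± 0.42, the alcohol dehydrogenase Adh6a at 3.80 ± 0.37 and the apolipoprotein Apoc3 at 3.61 ± 0.60. The sugar-splitting enzyme Sis (sucrase-isomaltase) had a log2 ratio of 3.60 ± 0.70, the mitochondrial arginase Arg2 of 3.22 ± 0.38 and the peptide hormone precursor Guca2b (uroguanylin) of 3.22 ± 0.73. Krt20, a keratin of differentiated gut epithelium, stood at 3.17 ± 0.70, the sialyltransferase St3gal4 at 3.06 ± 0.72, the respiratory chain subunit Cox7a1 at 2.90 ± 0.45 and the aminopeptidase Anpep at 2.61 ± 0.35.

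On the other side, crypt genes were lower. All 6 stem cell markers were lower in mature cells in all 4 libraries, with a median log2 ratio of -1.99. The transcription factor Sox4 had a log2 ratio of -2.60 ± 0.90 (SD, n = 4 libraries), Sox9, a crypt transcription factor, of -1.99 ± 0.65, and the Wnt-pathway gene Smoc2 of -1.61 ± 0.52. The ion cotransporter Slc12a2 stood at -2.06 ± 0.77 and the cell-cycle kinase gene Cdk6 at -1.78 ± 0.64. The growth factor binding protein Igfbp4 had a ratio of -2.50 ± 0.99 and Gkn3, a marker of crypt base cells, of -2.45 ± 1.05. Of 8 genes of MHC class II presentation, 7 were lower in mature cells in all 4 libraries, with a median of -0.97.

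Cycling cells were not removed by the division. The 5 proliferation markers summed to 255 and 306 CPM in mature control cells and to 248 and 320 CPM in mature ketogenic cells, against 327, 294, 279 and 283 CPM in the immature cells of control libraries 1 and 2 and ketogenic libraries 1 and 2. When the mature cells were ordered by marker share and cut into 3 bins of equal size, Mki67, a protein of dividing nuclei, was at 47.1, 69.5, 60.7 and 44.0 CPM in the lowest bin of these libraries and at 12.8, 23.2, 14.8 and 28.3 CPM in the highest bin. The stem cell receptor Lgr5 went from 4.50, 21.5, 10.8 and 30.7 CPM in the lowest bin to 2.19, 2.80, 3.81 and 5.30 CPM in the highest. At the other end, Nt5e and Enpp3, which mark the villus tip, were close to absent. Nt5e had 0, 5, 0 and 0 UMIs and Enpp3 had 10, 10, 3 and 8 UMIs in all mature cells of the 4 libraries. Of 10 villus tip genes with enough counts, 5 were higher and 3 lower in mature cells in all 4 libraries. Their median log2 ratio was 0.61. The digestive genes thus go with the name mature, while Nt5e and Enpp3 were near 0. The lowest bin still held cycling and stem cell transcripts.

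**Figure D2:**
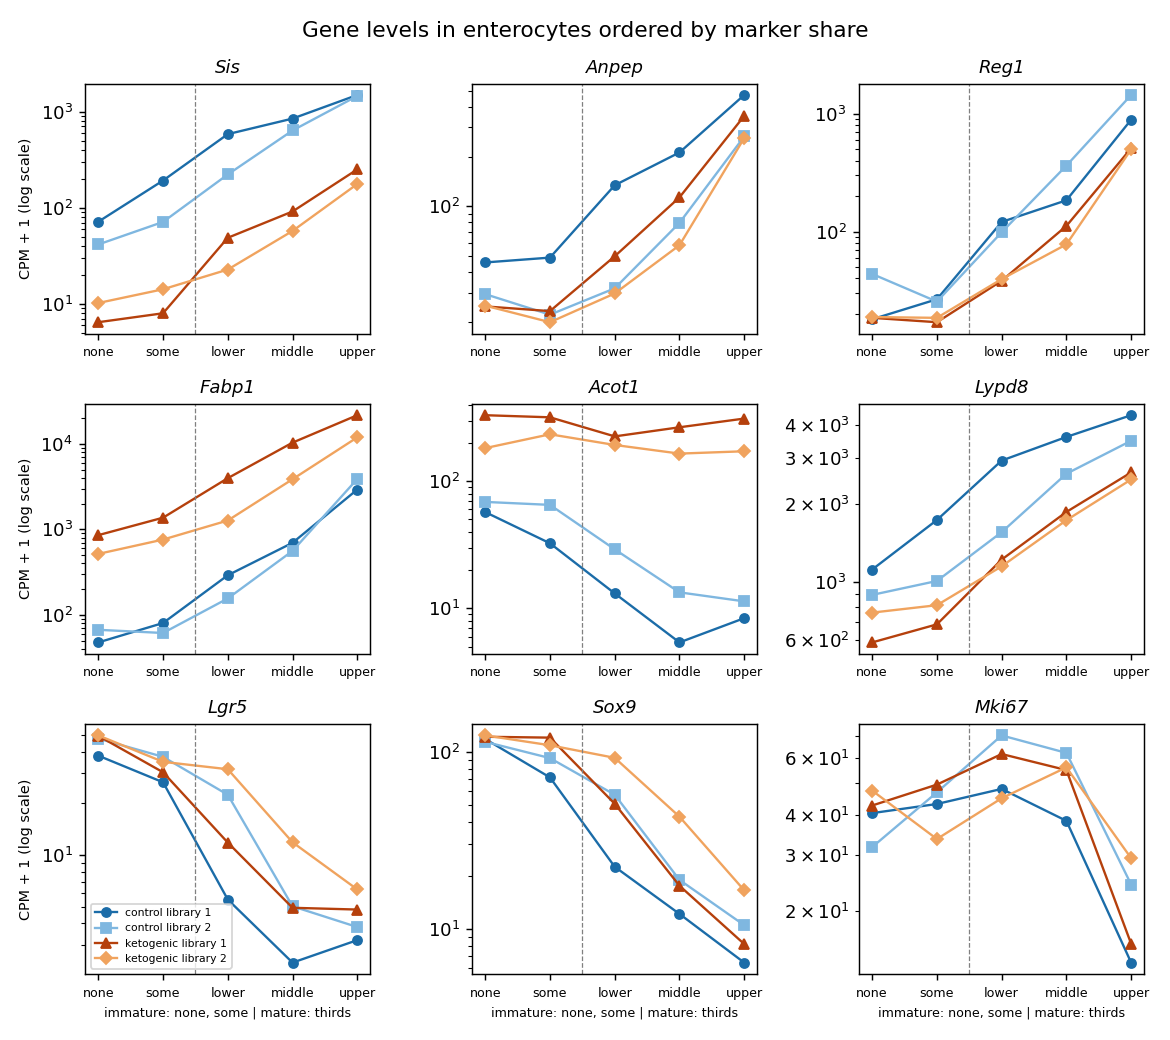
Level in CPM plus 1 (y axis, log scale) of 9 genes in enterocytes ordered by marker share (x axis): immature cells with no marker UMI, immature cells with some, and mature cells in 3 bins of equal size, 1 line per library. Sis, Anpep, Reg1, Fabp1 and Lypd8 were highest in the highest bin in every library, Lgr5 and Sox9 were lower there than in immature cells, Mki67 was lowest in the highest bin, and Acot1 lay apart by diet in all bins.

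Markers of other cell types were present at differing levels and may bear on the values below. The 6 stem cell markers summed to 102 and 275 CPM in mature control cells and to 180 and 398 CPM in mature ketogenic cells. Paneth cell markers, 8 genes of antimicrobial secretion, summed to 67.5 and 132 CPM on the control diet and to 411 and 161 CPM on the ketogenic diet. Goblet cell markers summed to 440, 577, 538 and 485 CPM in control libraries 1 and 2 and ketogenic libraries 1 and 2. T cell markers gave 110, 4, 0 and 184 UMIs, macrophage markers from 8 to 15 UMIs, fibroblast markers 0 or 1 UMI and erythrocyte markers 0 UMIs in each library. The part of these markers in the results below was not tested.

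On the ketogenic diet, transcripts for splitting and exporting sugar (Sis, Mgam and Slc2a2) fell in mature enterocytes, as did those of Pkm, Il18, Slc16a6 and the interferon-stimulated genes Ifit1 and Isg15. Transcripts for handling fatty acids (Acot1 and Mgll), Akr1b8 and Tm4sf4 rose. Summed counts of the 4 libraries were compared with edgeR's quasi-likelihood test and Benjamini-Hochberg adjustment over all genes, with a threshold of 0.05. Of 10789 genes tested, 12 passed, which is 0.111%. Of these, 4 rose (0.0371%) and 8 fell (0.0741%). The adjusted p was 0.0338 for 11 of the 12 genes and 0.0388 for Tm4sf4. Without adjustment, 762 genes (7.06%) had p under 0.05, and in 38.0% of all genes the libraries of the 2 diets did not overlap. All 12 genes kept their direction under 17 alternative settings.

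The number of genes past the threshold varied with the libraries and the cells used. It was 49 without control library 1, 267 without control library 2, 20 without ketogenic library 1 and 49 without ketogenic library 2, and only Mgam of the 12 lost its call in these fits, without ketogenic library 1. None of the 12 passed under 3 other settings, which were marker shares from Alpi, Rbp2 and Ada alone (adjusted p from 0.0730 to 0.115), shares taken after thinning each cell to 2000 UMIs (0.0513 to 0.0823) and cells without the 10% that had the most UMIs (0.234 to 0.358). The numbers of genes with an unadjusted p under 0.05 were then 666, 582 and 516. With cells under 20% mitochondrial UMIs 24 genes passed, and with cells of at least 0.1% marker share in every library 216 passed, in both cases with all 12 among them.

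**Figure D3:**
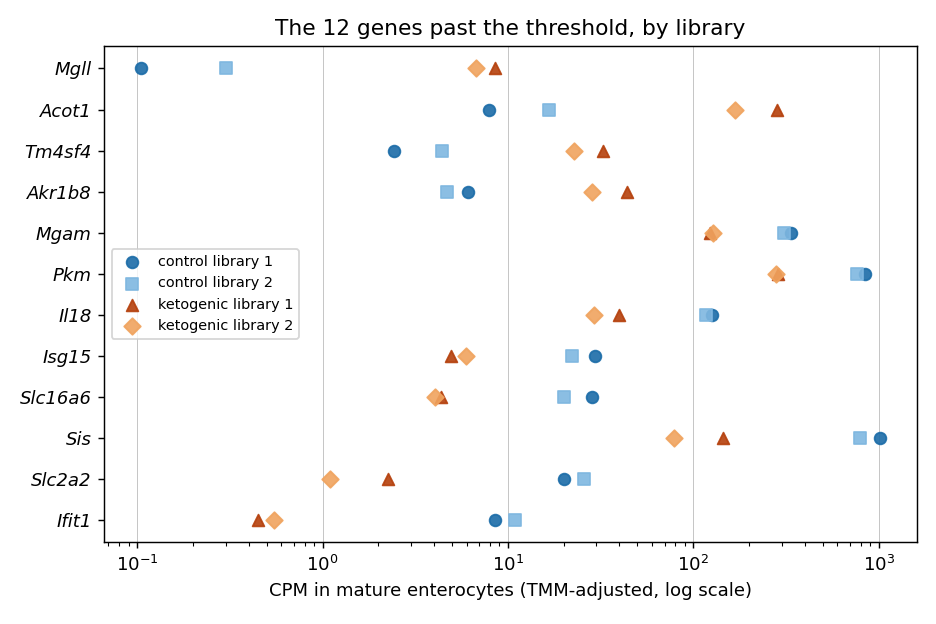
Level in CPM (x axis, log scale) of the 12 genes past the threshold in mature enterocytes, 1 symbol per library. In each gene both ketogenic libraries lie on the same side of both control libraries, from Mgll at the top, with 0.105 and 0.300 CPM on the control diet, to Ifit1 at the bottom, with 0.449 and 0.549 CPM on the ketogenic diet.

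Among genes of carbohydrate digestion and sugar uptake, 3 of 11 tested fell and none rose. Sis, which splits sucrose and products of starch, lies at chr3:72888557-72967863 on the minus strand (mm10). It stood at 1012 and 796 CPM on the control diet and at 144 and 78.9 CPM on the ketogenic diet. The highest ketogenic library thus lay far below the lowest control library, and the log2 fold change of Sis was -3.02 ± 0.30 (SE), with an adjusted p of 0.0338 in edgeR. A Sis UMI was seen in 89.9% and 74.7% of mature cells on the control diet and in 44.2% and 32.9% on the ketogenic diet. In tuft cells of the same libraries it was seen in 10.1%, 4.10%, 3.45% and 1.85%. Enteroendocrine cells held Sis at 221 and 310 CPM on the control diet and at 222 and 189 CPM on the ketogenic diet. Goblet, Paneth, stem, transit amplifying and tuft cells each held less Sis in both ketogenic libraries than in both control libraries. Even in the bin with the highest marker share, Sis reached 1489 and 1454 CPM on the control diet but 249 and 175 CPM on the ketogenic diet.

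Slc2a2 encodes GLUT2, the transporter through which hexoses leave the enterocyte towards the blood (chr3:28697903-28731359, plus strand). It stood at 20.1 and 25.8 CPM on the control diet and at 2.25 and 1.10 CPM on the ketogenic diet, which rest on 191, 258, 15 and 10 UMIs. The groups did not overlap and the log2 fold change was -3.82 ± 0.34. Mgam, the maltase-glucoamylase that releases glucose from starch fragments (chr6:40628831-40769123, plus strand), stood at 337 and 308 CPM on the control diet and at 123 and 128 CPM on the ketogenic diet. Its log2 fold change was -1.36 ± 0.14.

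The remaining genes of this list did not pass the test, though 7 of the 8 had log2 fold changes below 0. Slc5a1, the sodium-glucose cotransporter SGLT1, was at 220 and 159 CPM on the control diet and at 75.9 and 65.5 CPM on the ketogenic diet, a log2 difference of -1.42 ± 0.20 with an adjusted p of 0.102. It passed under 9 of 17 alternative settings. The fructose transporter Slc2a5 differed by -1.83 ± 0.39 (adjusted p 0.258) and lactase, Lct, by -0.69 ± 0.23 (adjusted p 0.572). Of the enzymes that break down fructose, the ketohexokinase Khk differed by -1.21 ± 0.22 and the triose kinase Tkfc by -1.28 ± 0.18. The median over the 11 genes was -1.28, against 0.03 over all genes tested, and 6 and 8 of them passed without control library 1 and control library 2.

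Glycolysis and pyruvate entry showed 1 call among 19 genes. Pkm, the pyruvate kinase of the last step of glycolysis (chr9:59656368-59679375, plus strand), fell from 841 and 764 CPM on the control diet to 286 and 280 CPM on the ketogenic diet. The values within a diet lay close together, and the log2 fold change was -1.50 ± 0.14. Gapdh, an enzyme of the middle of the pathway, differed by -0.99 ± 0.15 but did not pass (adjusted p 0.122). The median of the list was -0.28, with 16 of 19 genes below 0. Omitting control library 1 gave a median of -0.17 with 2 genes past the threshold, and omitting control library 2 gave -0.42 with 6. The monocarboxylate transporter gene Slc16a6 (chr11:109450855-109473598, minus strand) also passed. It stood at 28.3 and 20.03 CPM on the control diet and at 4.34 and 4.07 CPM on the ketogenic diet, a log2 fold change of -2.52 ± 0.25.

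Of the genes of fatty acid handling, the PPAR targets Acot1 and Mgll rose on the ketogenic diet. Among 24 tested targets of PPARα and its relatives, 2 rose and none fell, and 21 of 24 had log2 fold changes above 0. Pdk4, which had no control UMI, lay above the list's median both as fitted and at its lower bound, so the choice cannot move it. The median of the list was 1.31. It was 1.25, 1.00, 0.73 and 1.68 without control library 1, control library 2, ketogenic library 1 and ketogenic library 2, with 8, 12, 6 and 11 genes past the threshold. Acot1, a cytosolic thioesterase that frees fatty acids from coenzyme A (chr12:84009490-84018371, plus strand), stood at 7.88 and 16.6 CPM on the control diet and at 284 and 168 CPM on the ketogenic diet. Its log2 fold change was 4.20 ± 0.41. An Acot1 UMI was found in 5.75% and 9.53% of mature cells on the control diet and in 62.6% and 61.1% on the ketogenic diet, against 18.99%, 13.1%, 44.8% and 37.0% of tuft cells. Acot1 has close relatives in the genome, so reads shared between them make its level uncertain.

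Mgll, the lipase that cleaves monoacylglycerol (chr6:88724412-88828360, plus strand), rested on few molecules. It had 1 and 3 UMIs on the control diet and 57 and 61 on the ketogenic diet, or 0.105, 0.300, 8.53 and 6.70 CPM. Pooled per diet this was 36.5-fold more on the ketogenic diet, with an exact 95% interval of 13.9 to 136 that covers counting error only. The fitted log2 fold change of Mgll was 5.12 ± 0.51. Without control library 2, whose omission leaves 1 control UMI, the pooled ratio was 71.3 (12.5 to 2839). Mgll UMIs were seen in 5.72% and 5.79% of mature cells on the ketogenic diet and in 0.0928% and 0.217% on the control diet. In immature cells the shares were 9.50% and 5.99% on the ketogenic diet and 0.464% and 0.505% on the control diet. Tuft cells held Mgll UMIs more often in every library and so cannot serve as a background for Mgll. Their shares were 15.2% and 6.56% on the control diet and 19.8% and 23.1% on the ketogenic diet.

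The following genes of fatty acid handling did not pass the test. Fabp1, the carrier of fatty acids in the cytosol, had 1426 and 1617 CPM on the control diet and 13308 and 5298 CPM on the ketogenic diet. The groups were far apart, but the ketogenic libraries also differed from each other by more than the control libraries did, and the log2 difference of 2.61 ± 0.41 had an adjusted p of 0.137. It passed under 10 of 17 alternative settings, among them each omission of 1 library. Pdk4, the kinase that shuts pyruvate out of the citric acid cycle, had 0 UMIs on the control diet and 39 and 14 on the ketogenic diet. With a floor of 3 counts set for both control libraries together, and ketogenic counts taken as exact, it was at least 21.9-fold higher. It was at least 11.2, 10.7, 10.5 and 35.9-fold higher without control library 1, control library 2, ketogenic library 1 and ketogenic library 2. Its adjusted p was 0.258.

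Cpt1a, which commits fatty acids to mitochondria, differed by 1.10 ± 0.22 (adjusted p 0.258), the dehydrogenase Acadl by 0.87 ± 0.14 (adjusted p 0.147) and the carnitine carrier Slc25a20 by 1.54 ± 0.33 (adjusted p 0.258). No gene of mitochondrial fatty acid oxidation passed, though 18 of 21 had values above 0, with a median of 0.52 and 12 of 21 with an unadjusted p under 0.05. That median was 0.34 without ketogenic library 1 and 0.79 without ketogenic library 2, with 1 and 3 genes past the threshold, and there were 7 such genes with DESeq2 and 10 at 0.1% marker share. All 13 peroxisomal genes had values above 0, with a median of 0.72, and none passed. Creb3l3, a transcription factor of the endoplasmic reticulum that acts on fat metabolism, stood at 41.4 and 27.5 CPM on the control diet and at 265 and 85.2 CPM on the ketogenic diet (log2 difference 2.34 ± 0.51, adjusted p 0.264). Ppara itself differed by 0.64 ± 0.20 (adjusted p 0.536) and Fabp2, the intestinal fatty acid carrier, by 1.29 ± 0.30 (adjusted p 0.313). Within the ketogenic diet, library 1 was above library 2 in Fabp1, Fabp2, Creb3l3, Cpt1a and Pdk4, as it was in Rbp2 and in the median share of mitochondrial UMIs. The part of marker content and mitochondrial UMIs in these values was not tested.

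Of the genes that re-form and pack triglyceride into chylomicrons, none of 15 passed, 6 were above and 9 below 0, and the median log2 difference was -0.13. The sign of this median turned with the libraries, being 0.0779 and 0.0821 without control library 1 and ketogenic library 2 and -0.35 and -0.60 without control library 2 and ketogenic library 1. Apob, the backbone of the chylomicron, stood at 89.7 and 102 CPM on the control diet and at 137 and 79.8 CPM on the ketogenic diet. Mttp, which loads fat onto it, was at 391 and 273 CPM on the control diet and at 459 and 221 CPM on the ketogenic diet. In both genes the control values lay between the ketogenic ones. Mogat2 and Dgat1, acyltransferases of triglyceride synthesis, each differed by -0.26, with SE of 0.29 and 0.26, and Dgat2 by -0.42 ± 0.22. The signs of Apob, Mttp, Mogat2 and Dgat1 turned under some alternative settings.

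The interferon-stimulated genes Ifit1 and Isg15 fell. They were 2 of 18 tested in their list, in which none rose, 17 of 18 had values below 0 and the median log2 difference was -1.68. The number past the threshold was 4, 7, 2 and 3 without control library 1, control library 2, ketogenic library 1 and ketogenic library 2. Ifit1, an RNA-binding antiviral protein (chr19:34640871-34650009, plus strand), stood at 8.52 and 10.9 CPM on the control diet and at 0.449 and 0.549 CPM on the ketogenic diet. These rest on 81, 109, 3 and 5 UMIs. The log2 fold change was -4.23 ± 0.39, and pooled UMIs gave a ketogenic to control ratio of 0.0521 (exact 95% interval 0.0222 to 0.105). A UMI of Ifit1 was found in 3.06% and 2.60% of mature cells on the control diet, against 0% and 1.64% of tuft cells, and in 0.343% and 0.445% on the ketogenic diet, against 0.862% and 1.85% of tuft cells. The ketogenic shares thus lay below those of tuft cells. There were only 79 and 122 tuft cells on the control diet and 116 and 108 on the ketogenic diet. Whether tuft cells themselves make Ifit1 was not tested. Isg15, a ubiquitin-like protein (chr4:156199424-156200818, minus strand), was at 29.5 and 22.2 CPM on the control diet and at 4.94 and 5.93 CPM on the ketogenic diet, a log2 fold change of -2.24 ± 0.24. The nucleic acid sensor Zbp1 differed by -2.60 ± 0.41 and the oligoadenylate synthetase-like Oasl2 by -1.79 ± 0.25, with adjusted p of 0.137 and 0.102.

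Antigen presentation needs reading by library. All 12 genes of MHC class I presentation had values below 0, with a median of -0.64, and none passed. Psmb8, a subunit of the immunoproteasome, was at 276.5 CPM in control library 1 and at 86.0, 69.2 and 61.8 CPM in control library 2 and ketogenic libraries 1 and 2, and its log2 difference of -1.47 ± 0.48 was -0.40 without control library 1. MHC class II genes rested on the same library. Cd74, the invariant chain, was at 561 CPM in control library 1 and at 5.41, 3.29 and 17.9 CPM in the other 3 libraries, and its log2 difference of -4.69 ± 1.75 turned to 1.01 without control library 1. The median of the 6 class II genes was -3.70 with all libraries and 0.05 without control library 1. T cell markers gave 110 and 4 UMIs in control libraries 1 and 2 and 0 and 184 UMIs in ketogenic libraries 1 and 2. The part of other cell types in the Cd74 values was not tested. Markers of B and plasma cells gave 17 to 23 UMIs per library.

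Short sequences known to bind regulators of enterocytes and of interferon responses were looked for in front of the start sites of the 12 called genes and of Fabp1. RefSeq promoters of GRCm38.p6, from 250 bases before to 50 after the start, were searched on both strands for GAAANNGAA (from the interferon-stimulated response element, ISRE), TTTATNG (the form bound by intestinal CDX factors), CANAGGNCA (from DR1, the element bound by PPAR and HNF4), GTTAATNAT (from the HNF1 element) and CACGTG (E-box). Of 32851 promoters, 8.56% held the ISRE letters, 10.9% the CDX form, 7.57% the DR1 letters, 0.801% the HNF1 letters and 7.15% the E-box. Both interferon-stimulated genes that fell held the ISRE letters, Ifit1 and Isg15 each at 3 places, some of which overlap. Sis held 1 CDX form, Il18 held the HNF1 letters at 2 places, and Fabp1 held the DR1 letters at 1 place and the CDX form at 3. Tm4sf4 held 1 CDX form and the HNF1 letters at 1 place, and Mgll and Mgam held an E-box. Acot1, Slc2a2, Pkm and Akr1b8 held none of the 5 in this window. The promoters of Ifit1, Isg15, Sis and Fabp1 are printed on the gene's strand because they show the matches, in capitals, beside genes described above. Their positions are chr19:34640639-34640938 (plus strand) for Ifit1, chr4:156200769-156201068 (minus strand) for Isg15, chr3:72967814-72968113 (minus strand) for Sis and chr6:71199629-71199928 (plus strand) for Fabp1. A match describes the letters and is not a measured binding site.
Ifit1: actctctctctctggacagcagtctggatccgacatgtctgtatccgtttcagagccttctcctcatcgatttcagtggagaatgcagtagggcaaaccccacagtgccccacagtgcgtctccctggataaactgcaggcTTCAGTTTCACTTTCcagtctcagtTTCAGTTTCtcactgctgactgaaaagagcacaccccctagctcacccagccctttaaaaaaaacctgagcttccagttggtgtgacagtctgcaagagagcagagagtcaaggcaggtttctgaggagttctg
Isg15: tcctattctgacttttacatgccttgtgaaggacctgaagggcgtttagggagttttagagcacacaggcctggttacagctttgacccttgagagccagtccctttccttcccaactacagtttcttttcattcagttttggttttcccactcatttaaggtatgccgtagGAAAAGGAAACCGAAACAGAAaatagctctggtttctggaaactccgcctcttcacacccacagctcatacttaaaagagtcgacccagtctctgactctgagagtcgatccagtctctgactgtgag
Sis: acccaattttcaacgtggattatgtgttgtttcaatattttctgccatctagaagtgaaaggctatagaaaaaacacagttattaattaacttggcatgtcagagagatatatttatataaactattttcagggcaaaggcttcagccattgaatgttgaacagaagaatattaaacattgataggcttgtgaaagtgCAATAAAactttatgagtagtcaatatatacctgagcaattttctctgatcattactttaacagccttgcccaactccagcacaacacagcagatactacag
Fabp1: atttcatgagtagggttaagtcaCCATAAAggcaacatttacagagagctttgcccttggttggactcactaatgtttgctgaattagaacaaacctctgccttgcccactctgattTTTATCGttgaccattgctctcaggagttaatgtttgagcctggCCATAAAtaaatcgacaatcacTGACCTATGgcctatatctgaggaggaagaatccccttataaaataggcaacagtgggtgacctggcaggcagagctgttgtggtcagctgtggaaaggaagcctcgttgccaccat

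Il18 was the called gene of a list named for the villus bottom, of which 1 of 10 fell and none rose. The list's name goes against its place here, since 7 of the 10 genes were higher in mature than in immature cells in all 4 libraries, and Il18 went from 8.97 and 5.61 CPM in control cells with no marker UMI to 226 and 255 CPM in the highest bin. It encodes a cytokine stored in epithelial cells (chr9:50554827-50581840, plus strand), and it stood at 126 and 117 CPM on the control diet and at 39.8 and 29.0 CPM on the ketogenic diet. The log2 fold change of Il18 was -1.82 ± 0.19. The antibacterial lectins Reg3b and Reg3g, of the same list, were at 2039 and 2386 CPM and at 1248 and 1157 CPM on the control diet, and at 549 and 1035 CPM and at 394 and 580 CPM on the ketogenic diet. Their log2 differences of -1.48 ± 0.30 and -1.30 ± 0.21 did not pass, with adjusted p of 0.257 and 0.141. The median of the list was -0.61. Omitting control library 1 gave -0.33 with 4 genes past the threshold, and omitting control library 2 gave -0.98 with 7. None of the 6 Paneth markers tested passed, and all were above 0 with a median of 1.78. The largest single contributor by UMIs, Defa24, was at 44.4 and 98.6 CPM on the control diet and at 298 and 99.3 CPM on the ketogenic diet, so 1 library stood apart. Defensin genes have near-identical copies, which makes their counts uncertain.

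The other 2 genes that rose belong to no list of fat or sugar genes. Akr1b8, an aldo-keto reductase that detoxifies aldehydes (chr6:34354119-34368463, plus strand), stood at 6.10 and 4.71 CPM on the control diet and at 43.9 and 28.3 CPM on the ketogenic diet, a log2 fold change of 2.73 ± 0.28. It was the only call among 15 aldo-keto reductases and antioxidant genes, whose median was 0.04. Tm4sf4, a membrane protein (chr3:57425314-57441677, plus strand), was at 2.42 and 4.41 CPM on the control diet and at 32.6 and 22.7 CPM on the ketogenic diet. Its log2 fold change was 3.00 ± 0.33. A Tm4sf4 UMI was seen in 1.48% and 2.67% of mature cells on the control diet and in 13.8% and 14.9% on the ketogenic diet. In immature cells it was seen in 3.15% and 6.28% on the control diet and in 18.1% and 16.6% on the ketogenic diet. Tuft cells held it in 62.0%, 73.8%, 82.8% and 83.3% of cases, so they are no background for this gene. The 7 tuft cell markers summed to 3.68 and 3.61 CPM in mature cells on the control diet and to 6.24 and 6.45 CPM on the ketogenic diet, and their part in the difference of Tm4sf4 was not tested.

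No gene of cholesterol synthesis passed. All 23 genes had values below 0, 16 of them with an unadjusted p under 0.05, and the median was -0.71. It was -0.35 without control library 1, with 1 gene past the threshold, and -0.94 without control library 2, with 12. Sqle, which makes the first oxygenated sterol precursor, differed by -1.02 ± 0.21 (adjusted p 0.258). Peptidases and amino acid transporters had a median of -0.18 and brush border structure genes one of -0.48, with no call among 14 and 12 genes. Transcription factors of enterocytes had a median of 0.03 over 22 genes and no call. Villus tip genes had no call among 9 tested, and Klf4 and Egfr, 2 of them, differed by -0.31 ± 0.29 and 0.03 ± 0.28.

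**Figure D4:**
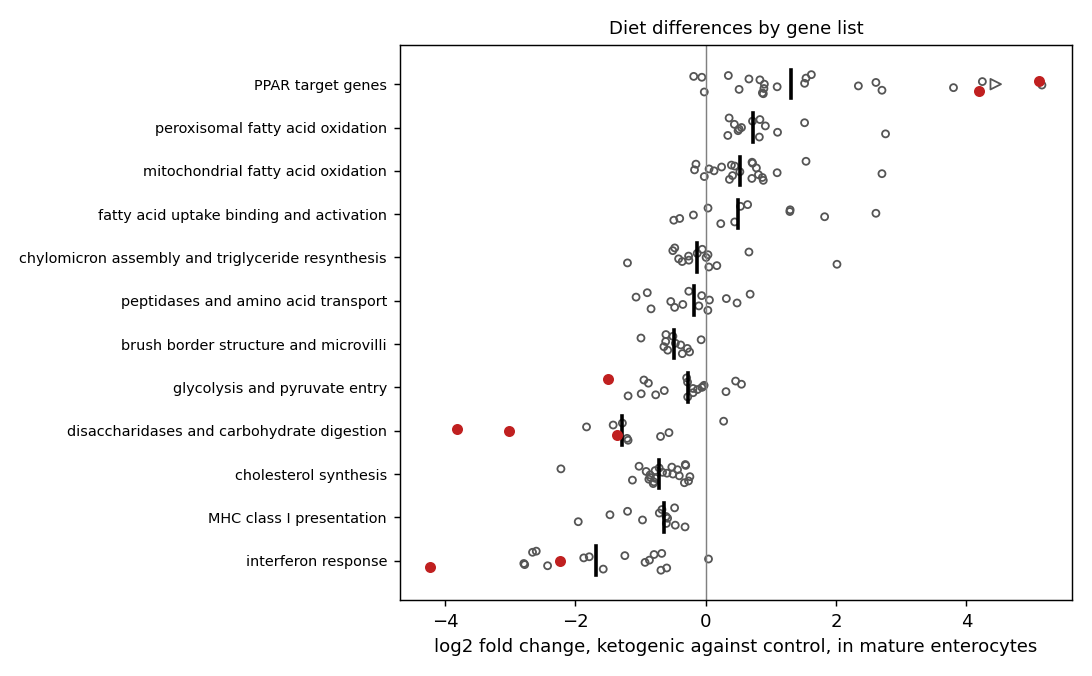
Log2 fold change of ketogenic against control in mature enterocytes (x axis) for the tested genes of 12 lists (y axis); filled points passed the threshold, open points did not, bars are medians, and the arrow is the lower bound of Pdk4. Medians run from 1.31 for PPAR targets to -1.68 for interferon-stimulated genes, and points of chylomicron assembly lie on both sides of 0.

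Whether the diet difference of mature cells differed from that of immature cells was tested as an interaction over 8 sums, with library as a block. CPM values in this comparison come from a joint scaling of the 8 sums and so differ slightly from those above. Of 11300 genes, 3 passed, which is 0.0265%, with 1 more positive (0.00885%) and 2 more negative (0.0177%) in mature cells, and 360 genes (3.19%) had an unadjusted p under 0.05. All 3 kept their sign under 18 alternative settings. The count was 3, 1, 6 and 12 without control library 1, control library 2, ketogenic library 1 and ketogenic library 2, and none of the 3 passed without control library 2. Acot1 alone of the 3 passed without control library 1, and Acot1 and Fabp1 passed without either ketogenic library. None of the 3 passed with the markers Alpi, Rbp2 and Ada alone, without the 10% of cells that had the most UMIs, or without the library block.

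Acot1 differed more by diet in mature than in immature cells. On the control diet it was at 8.20 and 17.3 CPM in mature cells and at 41.1 and 65.4 CPM in immature cells. On the ketogenic diet both were high, with 290 and 173 CPM in mature cells and 321 and 186 CPM in immature cells. The control libraries thus lost Acot1 with marker share and the ketogenic libraries hardly did, and the difference in log2 fold change was 1.97 ± 0.16 (SE, adjusted p 0.0141 in edgeR). Along the bins, Acot1 went from 56.2 and 67.7 CPM in control cells with no marker UMI to 7.38 and 10.4 CPM in the highest bin, and from 329 and 181 CPM to 310 and 171 CPM in ketogenic cells. For comparison, stem cells held 82.7 and 86.9 CPM on the control diet and 324 and 249 CPM on the ketogenic diet.

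On the log2 scale, though not in CPM, Fabp1 differed less by diet in mature cells. It was at 1484 and 1683 CPM in mature and 59.6 and 62.8 CPM in immature control cells, and at 13604 and 5445 CPM in mature and 1160 and 551 CPM in immature ketogenic cells. The difference in log2 fold change was -1.26 ± 0.13 (adjusted p 0.0412). Tuft cells held 82.4 and 343 CPM of Fabp1 on the control diet and 392 and 306 CPM on the ketogenic diet. Whether tuft cells make Fabp1 themselves was not tested. Goblet cells held 52.7 and 46.0 CPM on the control diet and 362 and 256 CPM on the ketogenic diet. The immature control cells lay below the tuft levels and above the goblet levels, and the immature ketogenic cells lay above both. Id2, a repressor of helix-loop-helix transcription factors (chr12:25093799-25097140, minus strand), was at 54.5 and 24.1 CPM in mature and at 37.2 and 15.7 CPM in immature control cells. On the ketogenic diet it was at 10.1 and 11.6 CPM in mature and at 19.6 and 23.5 CPM in immature cells. Id2 was higher in mature than in immature cells in both control libraries and lower in both ketogenic libraries, and the difference was -1.57 ± 0.17 (adjusted p 0.0412).

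Acot1 was the only gene called for diet in mature cells that passed this test. Mgll, Akr1b8, Tm4sf4 and the genes that fell did not pass. Sis was at 124 and 49.1 CPM in immature control cells and at 6.32 and 9.73 CPM in immature ketogenic cells, and its difference was 0.20 ± 0.45 (adjusted p 0.994). Pkm differed by -0.65 ± 0.13 (adjusted p 0.727) and Mgam by -0.97 ± 0.17 (adjusted p 0.533). For Slc2a2 and Ifit1 the errors were 1.08 and 1.09, as large as a change of about 1 log2 unit, because immature cells held few of their UMIs. A p above the threshold does not show that mature and immature cells responded alike.

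**Figure D5:**
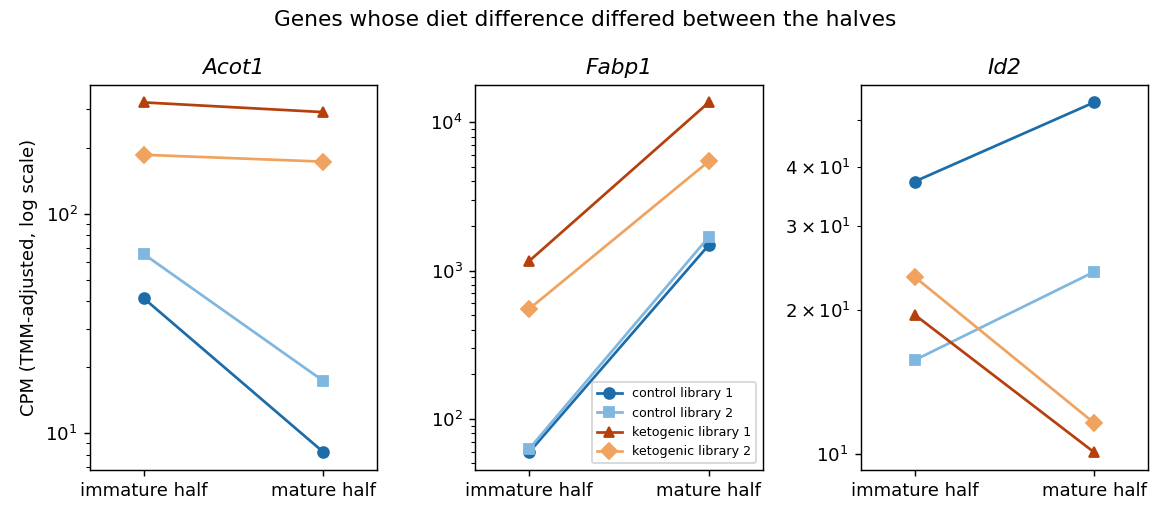
Level in CPM (y axis, log scale) of Acot1, Fabp1 and Id2 in immature and mature enterocytes (x axis), 1 line per library. Acot1 drops with maturity in the control libraries and hardly in the ketogenic ones, Fabp1 climbs in all 4, and Id2 climbs in the control libraries and drops in the ketogenic ones.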

How the data were processed

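The authors deposited raw UMI counts as 1 gene by cell matrix and, in a second table, each cell's library and type. The submitters' processing notes name Cell Ranger 2.1.0 and mm10. The sources used here do not state the cell filters, the doublet handling, the annotation release or how cell types were called, and no doublet caller was run. Cells were assigned to libraries by the sample titles, and libraries to groups by the diet label. The matrix held 27998 genes.

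Counts were summed per library over mature and immature enterocytes, since cells are not replicates. Control libraries were not copies of each other (chi-square 16.4 times its degrees of freedom, ketogenic pair 19.98 times). Sums were tested with edgeR 4.0.16 in R 4.3.3 (quasi-likelihood test, TMM, filterByExpr, Benjamini-Hochberg over all genes, threshold 0.05). CPM values use TMM-adjusted totals, except in bins, other cell types, marker sums and the 5 marker genes, where plain totals were used. Standard errors are the fold change divided by the square root of F, and ratios of mature to immature cells used CPM plus 1. A permutation test of 2 against 2 libraries cannot go below 0.33. Shares of cells have intervals and floors that cover counting error only. Tests were checked on simulated data.

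The members and lists were chosen with earlier results of these data known. Named genes are, for diet, the 10 largest rises and falls past the threshold with mean log2 CPM of at least 5, up to 4 called genes per list and a fixed set; for the difference, the 5 largest each way above the same level; for levels, the 12 most uniform each way with mean log2 CPM of at least 6. Outside the rule, and named after their values were seen, are Tm4sf4, Slc16a6, Id2, Khk, Tkfc, Gapdh, Slc25a20, Zbp1, Oasl2, Psmb8, Defa24 and, in the plots of bins, Lypd8. The letters searched in promoters were also chosen after the values were seen. Of 519 listed symbols, 4 were not among the gene names. Positions are from GENCODE M21, which matched 38 of 38 genes by symbol. Some genes within the rule are not reported here. Alternatives, with DESeq2 1.42.0 among them, are given in the closing section, where 1 of the settings was chosen after seeing the data.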

Additional observations from a re-analysis of the deposited data

Results flagged for a closer look

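For 3 genes the diet difference itself differed between mature and immature enterocytes, by the interaction test in edgeR with library as a block. The difference in log2 fold change was 1.97 for Acot1, whose diet difference was larger in mature cells, with the same sign in all 18 alternatives and an adjusted p above the threshold in 4 of them. It was -1.26 for Fabp1, whose diet difference was smaller in mature cells on the log2 scale only, with 6 of 18 alternatives above the threshold. For Id2 it was -1.57, with 10 of 18 alternatives above the threshold, and the order of mature and immature cells was opposite on the 2 diets. Groups of 2 libraries are too small to look for single outlying libraries.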

How the results depend on the processing

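The 12 diet calls of mature enterocytes kept their direction in all 17 alternatives. Their number was 12 with shares of non-mitochondrial UMIs, 13 with RLE size factors and 16 with thinned sums. It was 117 with DESeq2, 244 without a filter on low counts, 40 in the 25% of enterocytes with the highest marker share, 90 with 1 common threshold, 24 in cells under 20% mitochondrial UMIs and 216 with a marker share of at least 0.1% in every library, a setting chosen after seeing the data. It was 0 with Alpi, Rbp2 and Ada alone, with cells thinned to 2000 UMIs and without the 10% of cells with most UMIs. Leaving out 1 library gave from 20 to 267. For the difference between mature and immature cells the number was 7 with DESeq2, 11 with the highest against the lowest 25%, 23 with 1 common threshold, 5 under 20% mitochondrial UMIs, 38 at 0.1% marker share, and 0 with Alpi, Rbp2 and Ada, without the cells with most UMIs and without the library block, with 1 to 12 when 1 library was left out. The cause of these shifts was not tested.

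Library numbers were used as a replicate block only as an alternative, since the labels give diet as the only factor. Deviations of same-numbered libraries from their diet's mean correlated at 0.33 over 3445 genes. With 2 libraries per diet the other pairing gives the same value with the opposite sign, so the correlation cannot decide the pairing. The block gave 240 diet calls and 119 calls for the difference.

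Log2 differences turned below 0 for Mttp (-0.11 under 20% mitochondrial UMIs, -0.0343 with the block) and Egfr (-0.0401 under 20% mitochondrial UMIs, -0.0600 without the cells with most UMIs, -0.0522 at 0.1% marker share). Leaving out 1 library turned 7 genes, with ranges from -0.28 to 0.51 for Apob, -0.60 to 0.47 for Mttp, -0.62 to 0.15 for Mogat2, -0.63 to 0.0301 for Dgat1, -1.19 to 0.24 for Slc28a2, -0.25 to 0.37 for Egfr and -6.42 to 1.01 for Cd74. The PPAR target median ran from 0.73 to 1.68. In fits without 1 library, its partner was taken to vary as the libraries of the other diet do. Genes with few UMIs per library, such as Ifit1, Mgll and Slc2a2, limit what differences can be seen.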

Other observations

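Fabp6, the bile acid carrier of the lower small intestine, marks where along the gut cells came from, and its place in the maturation order differed by library. It was at 49.5 and 91.0 CPM in mature control cells and at 242 and 104 CPM in mature ketogenic cells. In the highest bin of marker share it was at 11.7 and 208 CPM on the control diet and at 503 and 8.12 CPM on the ketogenic diet. Among immature cells with some marker UMIs it was at 698 and 30.0 CPM on the control diet and at 28.4 and 311 CPM on the ketogenic diet. Control library 1 and ketogenic library 2 thus held it mostly in cells of low marker share, and the other 2 libraries in cells of high marker share, so the pattern did not follow diet. The adjusted p for diet in mature cells was 0.572.

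Some genes outside the comparisons named above had large diet differences in mature cells without passing the test; they were picked after their values were seen. The malic enzyme Me1, which makes NADPH for fat synthesis, was at 8.83 and 6.91 CPM on the control diet and at 109 and 47.5 CPM on the ketogenic diet (log2 difference 3.31 ± 0.41, adjusted p 0.0715 in edgeR). The fatty acid hydroxylase Cyp4a10 was at 0.421 and 0.801 CPM on the control diet and at 33.7 and 11.8 CPM on the ketogenic diet (5.16 ± 0.66, adjusted p 0.0814). Both passed in 12 of 17 alternatives. The desaturase Scd2 was at 277 and 143 CPM on the control diet and at 21.6 and 41.6 CPM on the ketogenic diet (-2.72 ± 0.40, adjusted p 0.122). The coactivator Ppargc1a, which drives mitochondrial genes, was at 36.8 and 30.8 CPM on the control diet and at 14.1 and 14.9 CPM on the ketogenic diet (-1.22 ± 0.18, adjusted p 0.122).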
